A study of Mus musculus with 9 samples.

Results

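The genes described here are 9 factors known for keeping T cells out of division and growth: Btg1, Btg2, Tob1, Slfn2, Foxp1, Foxo1, Foxo3, Cdkn1b and Tsc1. They were taken by gene symbol, and the choice was made with earlier results of these data known. All 9 were found among the 41978 genes of the deposited expression table. The samples were bulk RNA-seq profiles of semimature CD4 single-positive (SP4) thymocytes from Nur77-eGFP BAC transgenic mice, in which a bacterial artificial chromosome makes GFP under the regulatory DNA of Nr4a1 (Nur77), a gene induced by signals through the T cell receptor (TCR). Live cells that stained CD4+ CD8-, CD69+, CD24+ and CD25- were sorted by their GFP into the lowest 10% (GFPlo), a medium 10% (GFPmed) and the highest 10% (GFPhi), with 10000 cells per sample and 3 biological replicates per gate, 9 samples in all. All 3 gates carried the same reporter transgene, no treatment was named, and the labels gave no age of the mice. The study's text calls the sorted cells CD24lo where its methods call them CD24hi. The gates rank cells by a transgene, and each holds a mixture of clones from the normal repertoire.

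Quiescence is a maintained state in which a T cell stays small, translates little mRNA and does not enter the cell cycle. BTG and TOB proteins act on mRNA by bringing the CCR4-NOT deadenylase to its target transcripts, Slfn2 is a Schlafen protein whose loss makes T cells leave quiescence, and the forkhead factors Foxp1, Foxo1 and Foxo3 act on transcription. Cdkn1b (p27) blocks cyclin-dependent kinases at the G1/S step, and Tsc1 is a part of the complex that holds back mTORC1. In maturing thymocytes Foxo1 is best known for its target genes Klf2, S1pr1 and Il7r, which serve migration and survival, and Foxo1 itself is shut out of the nucleus by AKT when the TCR signals.

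The DNA just before the start of the 3 genes that rose with the reporter (Btg1, Foxo1, Slfn2) and of Btg2, the close relative of Btg1 that did not, is shown here because these 4 genes carry the contrast described in the following paragraphs. Each line holds the 250 bases upstream of the RefSeq start, 5′ to 3′ on the gene's own strand, in the GRCm38.p6 build, at chr10:96616751-96617000 (plus strand) for Btg1, chr1:134079156-134079405 (minus strand) for Btg2, chr11:83064862-83065111 (plus strand) for Slfn2 and chr3:52268087-52268336 (plus strand) for Foxo1. Capitals mark matches, on either strand, to the motifs searched.
Btg1: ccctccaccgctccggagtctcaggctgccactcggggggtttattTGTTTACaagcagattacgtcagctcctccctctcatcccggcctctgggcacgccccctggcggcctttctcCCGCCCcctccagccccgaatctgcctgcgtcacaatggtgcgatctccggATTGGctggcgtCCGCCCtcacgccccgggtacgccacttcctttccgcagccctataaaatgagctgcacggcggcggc
Btg2: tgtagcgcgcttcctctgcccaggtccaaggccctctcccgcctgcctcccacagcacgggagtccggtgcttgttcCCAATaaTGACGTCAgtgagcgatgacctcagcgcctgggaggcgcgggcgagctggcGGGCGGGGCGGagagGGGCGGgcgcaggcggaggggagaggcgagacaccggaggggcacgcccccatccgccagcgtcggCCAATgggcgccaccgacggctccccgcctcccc
Slfn2: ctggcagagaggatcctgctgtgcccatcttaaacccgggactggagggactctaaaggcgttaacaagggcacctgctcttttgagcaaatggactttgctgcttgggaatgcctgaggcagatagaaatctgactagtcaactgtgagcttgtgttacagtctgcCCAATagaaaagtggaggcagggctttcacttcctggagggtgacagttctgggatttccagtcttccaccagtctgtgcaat
Foxo1: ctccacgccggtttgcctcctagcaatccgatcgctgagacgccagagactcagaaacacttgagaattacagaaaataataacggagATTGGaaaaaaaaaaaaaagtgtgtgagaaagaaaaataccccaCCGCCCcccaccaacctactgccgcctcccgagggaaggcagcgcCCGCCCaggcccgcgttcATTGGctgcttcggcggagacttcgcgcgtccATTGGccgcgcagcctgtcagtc
The Slfn2 sequence had 2 CpG and a GC content of 50.8%, near the median of 52.4% over all promoters, whereas Btg1 had 21 CpG (GC 65.2%), Btg2 27 (73.2%) and Foxo1 20 (56%). The strings were searched on both strands in windows that also take in the 50 bases after the start, of which the 9 genes have 11 because Foxp1 has 3 starts. The FOXO string TGTTTAC was found in Btg1 alone among them, 204 bases before the start, and in 3.65% of all promoters. The cAMP response element TGACGTCA was found in Btg2 alone among them, 166 bases before the start, and in 1.79% of all promoters. The GC box GGGCGG was in 8 of the 11 windows (35.7% of all promoters), in Btg2 as 3 copies of which the first 2 share a base, and the short CCAAT was in 7 of the 11 (37.4%). No member window held the NR4A string AAAGGTCA (1.51% of all promoters), the AP-1 string TGACTCA (5.2%), the EGR string GCGTGGGCG (0.612%, which shares letters with the GC box) or the E-box CACGTG (7.15%).

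Reads per sample, solved from the deposited values, ran from 7465552 to 14943774 on genes, with a median of 9426281. Nr4a1 followed the gates, with a mean TPM (transcript abundance per gene, scaled to the library) of 217 in GFPlo, 374 in GFPmed and 840 in GFPhi. All 11 SP4 markers were present in the samples, among them Cd4, Cd3e and Trbc2. A gene is said to have risen or fallen where its limma test on log2(TPM + 1) over the 9 samples gave a p of at most 0.05 after Benjamini-Hochberg adjustment over 30693 genes, those that reached a TPM of 1 in 3 or more samples. All 9 factors passed that filter. The 1 added to each TPM makes fold changes of low genes such as Foxo3 smaller than their TPM ratios.

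Between GFPlo and GFPhi, 3 of the 9 factors rose (Btg1, Foxo1 and Slfn2), none fell, and 6 did not pass the test. Over all genes tested, 2.38% passed as higher and 1.51% as lower. Btg1 was the only factor past the study's DEG limit, a log2 fold change of 1 or more in size, which 1.26% of all genes tested passed as higher. The count of 0 lower was also 0 at an unadjusted p under 0.05 (13.8% of all genes in either direction) and with limma-voom run on reads solved from the table. Of the 30522 genes it tested, limma-voom called 1236 higher and 956 lower with library totals, and 868 higher and 230 lower with size factors. The median log2 fold change of the 9 factors was 0.05, and that of all genes tested was -0.09. In bulk samples such as these, a difference in RNA per cell and a difference in the share of cells that express a gene cannot be told apart.

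**Figure D1:**
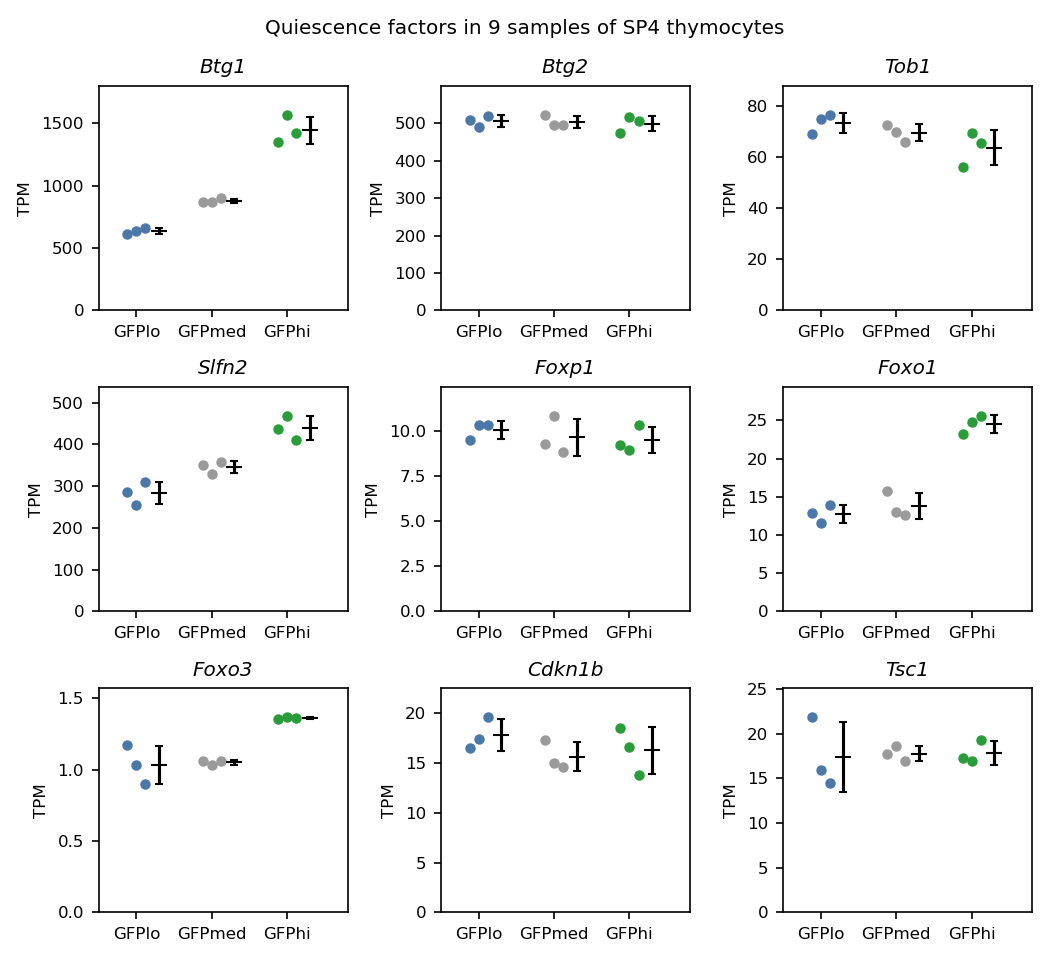
TPM of the 9 quiescence factors (vertical axes from 0, each with its own scale) in the 3 GFPlo, 3 GFPmed and 3 GFPhi samples, with points for samples and bars for the mean ± SD (n = 3). Btg1 and Slfn2 step up from gate to gate without overlap, the GFPhi samples of Foxo1 and Foxo3 lie above those of both other gates, and the groups of the other 5 genes overlap.

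Btg1, a BTG-family protein that restrains proliferation, showed the largest difference of the 9 factors. Its TPM was 612, 634 and 660 in the GFPlo samples, 867, 869 and 900 in the GFPmed samples, and 1352, 1566 and 1423 in the GFPhi samples. The samples of the 3 gates formed separate steps, GFPlo lowest and GFPhi highest. The mean rose from 635 ± 24.2 to 1447 ± 109 (SD, n = 3), a TPM ratio of 2.28 and a log2 fold change of 1.18 (SE 0.06, 95% confidence interval 1.04 to 1.33, limma adjusted p = 9.6e-05). Between 2770 and 9955 reads per sample stood behind these values. The gene lies on the plus strand at chr10:96617006-96622809 (GRCm38) and overlaps no other annotated gene. Its paralogs Btg1b and Btg1c, which could share reads with it, were listed at 3.61 to 9.42 and 2.16 to 6.26 TPM in the 9 samples.

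Btg2, the nearest relative of Btg1 among the 9 factors and like it a partner of the deadenylase, was abundant in every gate. The gene lies on the minus strand at chr1:134075170-134079120. Its TPM was 508.5, 489 and 520 in GFPlo, 521, 494 and 496 in GFPmed, and 475, 516 and 507 in GFPhi. The 3 groups overlapped. The log2 fold change between GFPlo and GFPhi was -0.02 (95% confidence interval -0.14 to 0.10, limma adjusted p = 0.940), the narrowest interval of the 9 factors and one that leaves out a change of the size seen in Btg1. Tob1, a larger family member that also recruits the deadenylase, had the largest difference downward among the 9 but did not pass. Its TPM was 69.0, 75.0 and 76.5 in GFPlo, 72.8, 70.1 and 66.1 in GFPmed, and 56.2, 69.7 and 65.5 in GFPhi. The GFPlo and GFPhi samples overlapped through GFPhi replicate 2, and the log2 fold change was -0.21 (95% confidence interval -0.42 to 0.01, limma adjusted p = 0.400).

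Within the BTG pair, the order of levels differed between gates. On a scale that allows levels of different genes to be compared, reads per kilobase of exonic length scaled to library size (RPKM), the ratio of Btg1 to Btg2 was 0.548, 0.590 and 0.578 in GFPlo, 0.757, 0.801 and 0.827 in GFPmed, and 1.29, 1.38 and 1.28 in GFPhi. On this scale Btg2 was the higher of the pair in all GFPlo and GFPmed samples and Btg1 in all 3 GFPhi samples. That order rests on the exonic lengths used (5276 bases for Btg1 and 2743 for Btg2), and in the deposited TPM, which divide by transcript span, Btg1 was the higher in all 9 samples. The fold change of the ratio between gates does not depend on the lengths. The RPKM of Btg2 stayed between 122 and 129 in the 9 samples.

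Slfn2, the Schlafen protein that is needed for T cells to stay quiescent, was higher in each higher gate. Its TPM was 287, 255 and 310 in GFPlo, 351, 329 and 358 in GFPmed, and 438, 468 and 411 in GFPhi. As for Btg1, no sample of a higher gate fell below any sample of a lower gate. The mean went from 284 ± 27.5 to 439 ± 28.4 (SD, n = 3), with a log2 fold change of 0.63 (SE 0.08, 95% confidence interval 0.44 to 0.82, limma adjusted p = 0.00646), on 2088 to 5132 reads per sample. The gene lies on the plus strand at chr11:83065112-83070678 in a cluster of Schlafen paralogs, whose near-identical stretches can cost or split reads. The antisense gene Gm20234 overlaps its locus but no base of its exons.

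Foxo1, the forkhead factor that AKT holds in the cytoplasm, had GFPlo and GFPmed samples at like levels and GFPhi samples above them. Its TPM was 12.8, 11.5 and 13.9 in GFPlo, 15.7, 13.1 and 12.6 in GFPmed, and 23.3, 24.8 and 25.5 in GFPhi. The GFPlo and GFPmed samples overlapped, and all 3 GFPhi samples lay above both. The log2 fold change between GFPlo and GFPhi was 0.90 (SE 0.13, 95% confidence interval 0.60 to 1.19, limma adjusted p = 0.00815). The gene lies on the plus strand at chr3:52268336-52353221, and 674 bases (7.78%) of its 8665 exonic bases are shared with the antisense gene Gm20402. The libraries do not mark strand, so reads of this stretch cannot be assigned to either gene. Gm20402 was listed at 161, 129 and 207 TPM in GFPlo, 179, 178 and 159 in GFPmed, and 287, 304 and 319 in GFPhi, on 209 to 605 reads per sample against 1397 to 4157 for Foxo1. Its own log2 fold change was 0.90 (SE 0.16, limma adjusted p = 0.0198), and its part in the Foxo1 value was not tested.

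Foxo3, the other FOXO factor of the 9, was the least abundant of them. Its TPM was 1.17, 1.03 and 0.900 in GFPlo, 1.06, 1.03 and 1.06 in GFPmed, and 1.35, 1.37 and 1.36 in GFPhi. All GFPhi samples were above all others, with a TPM ratio of 1.32 between GFPhi and GFPlo. On the log2(TPM + 1) scale the difference was 0.22 (95% confidence interval -0.15 to 0.59, limma adjusted p = 0.675), and it did not pass under any of the 18 alternatives that gave a value (adjusted p from 0.271 to 0.822). Only 96 to 203 reads per sample covered the gene.

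Foxp1, a forkhead repressor needed for naive T cells to stay quiescent (minus strand, chr6:98925338-99522721, with 300 exonic bases shared with Gm20696), did not differ beyond the spread of its samples. Its TPM was 9.50, 10.3 and 10.4 in GFPlo, 9.27, 10.8 and 8.86 in GFPmed, and 9.25, 8.94 and 10.3 in GFPhi. The 3 groups overlapped, and the log2 fold change between GFPlo and GFPhi was -0.08 (95% confidence interval -0.39 to 0.24, limma adjusted p = 0.898). The table gives 1 value per gene, so a switch between the Foxp1 starts would not be seen in it.

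Cdkn1b and Tsc1, which act on the cell cycle and on growth, likewise did not pass the test. Cdkn1b had a TPM of 16.5, 17.4 and 19.6 in GFPlo, 17.3, 15.0 and 14.6 in GFPmed, and 18.5, 16.6 and 13.8 in GFPhi, with a log2 fold change of -0.13 (95% confidence interval -0.45 to 0.20, limma adjusted p = 0.809). Tsc1 had a TPM of 21.8, 15.9 and 14.5 in GFPlo, 17.7, 18.6 and 16.9 in GFPmed, and 17.2, 16.9 and 19.3 in GFPhi, with a log2 fold change of 0.05 (95% confidence interval -0.31 to 0.41, limma adjusted p = 0.947). In both genes the groups overlapped, and for Tsc1 the highest and the lowest of the 9 samples were both GFPlo samples.

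By separation of samples, 4 factors (Btg1, Slfn2, Foxo1 and Foxo3) had every GFPhi sample above every GFPlo sample, against 8.26% of all genes tested. No factor had every GFPhi sample below every GFPlo sample, against 9.92% of all genes. Between GFPhi and GFPmed the same 4 factors were separated upward (7.11% of all genes) and none downward (9.41%). Between GFPmed and GFPlo, Btg1 and Slfn2 were separated upward (5.55%) and none downward (4.7%). A stepwise order, GFPlo below GFPmed below GFPhi with no overlap, was found in 512 genes (1.67% of those tested) and in Btg1 and Slfn2 among the 9 factors.

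**Figure D2:**
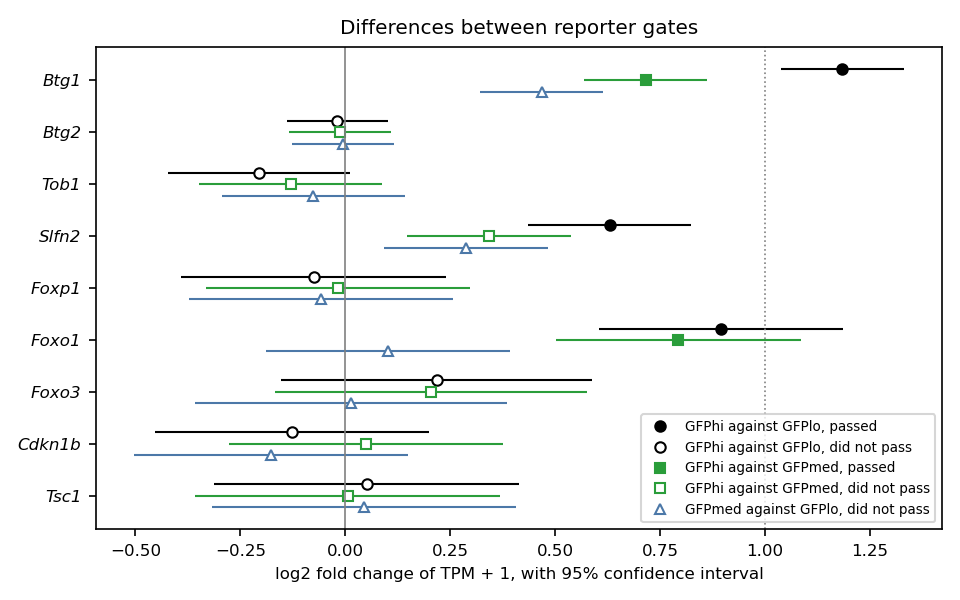
Log2 fold change of TPM + 1 with its 95% confidence interval (horizontal axis) for each of the 9 factors and each pair of gates, with filled symbols for an adjusted p of at most 0.05 and a dotted line at 1. Btg1, Slfn2 and Foxo1 pass between GFPlo and GFPhi, and no factor passes between GFPlo and GFPmed.

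The pairs with GFPmed place these rises along the gradient. Between GFPmed and GFPhi, 2 factors rose (0.899% of all genes tested) and none fell (0.609%), Btg1 by a log2 fold change of 0.72 (SE 0.06, limma adjusted p = 0.00239) and Foxo1 by 0.79 (SE 0.13, limma adjusted p = 0.0263). The Foxo1 call was lost with the replicate number as a block (adjusted p = 0.0757), with median-of-ratios scaling (0.0882), with quantile normalization (0.0914) and in a fit of the 2 gates alone (0.0818). It was also lost each time a GFPhi sample or GFPmed replicate 2 or 3 was left out (adjusted p from 0.0643 to 0.129). The Btg1 call was lost with median-of-ratios scaling, at an adjusted p of 0.0747, and its log2 fold change lay under the DEG limit of 1, but it passed in the other alternatives. Slfn2 had a log2 fold change of 0.34 between these gates (limma adjusted p = 0.121). It passed in limma-voom with library totals (0.38, adjusted p = 0.000591), which called 3 factors and 817 of all 30522 genes it tested as higher. Slfn2 did not pass with size factors, which called 2 factors and 444 genes as higher.

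Between GFPlo and GFPmed no factor passed, while 0.0717% of all genes tested passed as higher and 0.00326% as lower. At an unadjusted p under 0.05 (4.67% of all genes) there were 2, Btg1 with a log2 fold change of 0.47 (limma adjusted p = 0.0933) and Slfn2 with 0.29 (limma adjusted p = 0.730). Limma-voom on the solved reads called 1 factor when scaled by library totals and 0 when scaled by size factors. Of the 30522 genes it tested, it called 55 and 29 as higher with these scalings. Btg1 also passed without GFPhi replicate 2, at an adjusted p of 0.0337. Foxo1 had a log2 fold change of 0.10 (95% confidence interval -0.19 to 0.39). GFPmed thus held a share of 0.395 of the log2 difference between GFPlo and GFPhi for Btg1, 0.457 for Slfn2 and 0.113 for Foxo1.

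Whether the upper step (GFPmed to GFPhi) was larger than the lower step (GFPlo to GFPmed) was tested as a contrast of its own. No factor passed, and 0.0195% of all genes tested did. The upper step of Foxo1 exceeded the lower by 0.69 on the log2 scale (SE 0.22, 95% confidence interval 0.19 to 1.20, limma unadjusted p = 0.0135, limma adjusted p = 0.835), that of Btg1 by 0.25 (95% confidence interval -0.01 to 0.50) and that of Slfn2 by 0.05 (95% confidence interval -0.28 to 0.39). At an unadjusted p under 0.05 (5.02% of all genes) Foxo1 was the 1 factor counted. Limma-voom with library totals counted 1 factor, also Foxo1 (adjusted p = 0.0472), and called 45 genes higher and 59 lower of the 30522 it tested. With size factors it counted 0 factors and called 11 genes higher and 2 lower. The 3 pairs of gates share their samples and are not separate evidence.

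Per exonic length, the factors spanned a wide range of levels. In GFPlo, mean RPKM was highest for Slfn2 (164), followed by Btg2 (126) and Btg1 (72.0), then Foxp1 (23.4), Tob1 (22.4) and Foxo1 (21.6), and lowest for Tsc1 (7.54), Cdkn1b (3.39) and Foxo3 (1.68). The sample ranges of Foxp1, Tob1 and Foxo1 overlapped, and no other neighbours in this order did. In GFPhi the order on this scale changed in that Btg1 (165) passed Btg2 (126) and Foxo1 (42.0) moved clear of Foxp1 (22.4) and Tob1 (19.6), whose ranges still overlapped. Slfn2 was first in all 3 gates and reached 256 in GFPhi, and Foxo3 was last, at 2.24 there. The ratio of Foxo1 to Foxo3 in RPKM was 11.4 to 16.1 in the GFPlo samples, 12.3 to 15.4 in the GFPmed samples and 17.9 to 19.5 in the GFPhi samples.

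**Figure D3:**
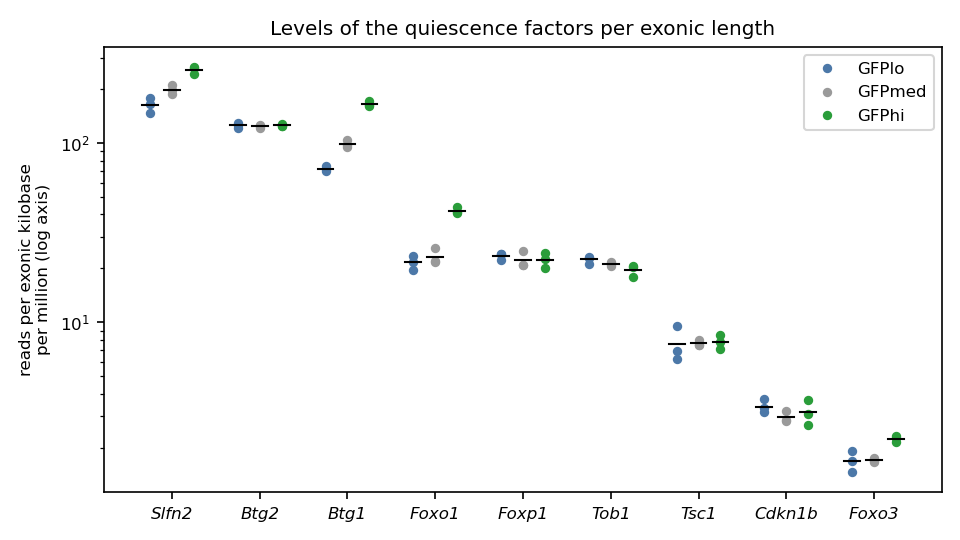
Reads per exonic kilobase, scaled to library size (log axis), of the 9 factors, ordered by their mean over all samples, with points for the 3 samples of each gate and lines for their means. Slfn2, Btg2 and Btg1 stand above the rest in every gate, Btg1 crosses Btg2 in GFPhi on this scale, and Foxo1 leaves the level of Foxp1 and Tob1 in GFPhi.

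For the factors with the largest difference in each direction, the genes with the most similar log2(TPM + 1) over the 9 samples were looked up among 12127 genes with a mean TPM of at least 10. For Btg1 they were Rasgrp2, a Rap1 exchange factor (Pearson r = 0.997), Cd5, a negative regulator of TCR signals (0.996), and the sphingosine-1-phosphate receptor S1pr4 (0.996), all of which rose between GFPlo and GFPhi. The samples share the reporter gradient and the libraries. For Tob1 they were Twistnb (0.973), Gm27869 (0.972) and Farsa (0.967), none of which passed the test.

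Among 16 tested relatives of the factors (other BTG/TOB, Schlafen, FOXO, FOXP, CIP/KIP and TSC genes), 4 rose between GFPlo and GFPhi, none fell, and the median log2 fold change was -0.02. At an unadjusted p under 0.05, 1 was lower, and limma-voom counted 0 lower with either scaling. The 4 were the Schlafen genes Slfn1, Slfn5 and Slfn8 and the regulatory T cell factor Foxp3. Slfn1, known as a regulator of thymocyte growth, went from a mean TPM of 69.0 to 221, a log2 fold change of 1.71 (limma adjusted p = 0.00798). Foxp3 went from 6.75 to 15.7, with 1.10 (limma adjusted p = 0.00987). The calls of Slfn1 and Foxp3 held in all 19 alternatives, whereas those of Slfn5 (1.52, limma adjusted p = 0.0431) and Slfn8 (1.05, limma adjusted p = 0.0395) were lost in several, and reads may be split between Schlafen copies. Tob2, the relative of Tob1, had a mean TPM of 121 in GFPlo and 120.2 in GFPhi, and Tsc2, the partner of Tsc1, had a log2 fold change of -0.10 (95% confidence interval -0.35 to 0.15).

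BTG and TOB proteins shorten poly(A) tails through deadenylases. Of 15 genes listed for the CCR4-NOT and PAN deadenylases, none passed in GFPhi against GFPlo, where 2.38% of all genes were higher and 1.51% lower. The 15 include Pabpc1 and Pabpc4, which encode poly(A)-binding proteins and not deadenylase subunits. Their median log2 fold change was -0.11. At an unadjusted p under 0.05 there were 1 higher and 1 lower. These were Pabpc1 (0.49, 95% confidence interval 0.13 to 0.84) and Cnot10 (-0.33, 95% confidence interval -0.54 to -0.12). Limma-voom also counted 1 higher and 1 lower with library totals, against 0 and 0 with size factors. The catalytic subunit Cnot7 had a log2 fold change of -0.11 (95% confidence interval -0.34 to 0.13) and the scaffold Cnot1 one of -0.18 (95% confidence interval -0.37 to 0.02).

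The FOXO target genes of T cells moved in both directions. Of 19 tested, 7 rose and 1 fell between GFPlo and GFPhi, with a median log2 fold change of 0.23. The largest rise was that of S1pr1, the receptor for thymic exit, from a mean TPM of 7.65 to 222 (log2 fold change 4.70, limma adjusted p = 1e-05). Next were the death gene Bcl2l11 (3.04), the migration factor Klf2 (2.60) and the repressor Bcl6 (1.89). The paper reports that induction of Bcl2l11 by self-antigen in SP4 thymocytes required Nr4a1 and Nr4a3. What raised the listed genes here was not tested. Pik3ip1, an inhibitor of PI3K, and Sesn3, an inhibitor of mTORC1, rose by log2 fold changes of 0.60 and 0.88. Il7r, the interleukin-7 receptor chain that Foxo1 is known to induce, fell from a mean TPM of 200 to 56.1 (log2 fold change -1.81, limma adjusted p = 6.5e-05). The call of Sesn3 was lost with the replicate block (adjusted p = 0.0820), and 5 of the 7 rises and the fall of Il7r held in all 19 alternatives. Limma-voom counted 8 higher and 2 lower with library totals and 9 higher and 1 lower with size factors. Mean TPM in GFPlo and GFPmed was 9.31 and 10.2 for Bcl6, whereas Klf2 stood at 87.8 and 181.

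Of 28 tested genes listed for the PI3K-AKT-mTORC1 pathway, which Tsc1 restrains and which acts on Foxo1, 1 rose and none fell. Over all genes tested, 2.38% were higher and 1.51% lower, and the median log2 fold change of the 28 was -0.01. At an unadjusted p under 0.05, 4 were higher and 2 lower, and limma-voom counted 4 higher and 1 lower with library totals and 2 higher and 0 lower with size factors. The gene that rose was the PI3K regulatory subunit Pik3r1 (0.55, limma adjusted p = 0.0203), a call lost with the replicate block (adjusted p = 0.0633). Mtor had a log2 fold change of 0.01 (95% confidence interval -0.25 to 0.26) and Rheb one of 0.08 (95% confidence interval -0.15 to 0.31). Without passing, Ddit4 (0.83, 95% confidence interval 0.23 to 1.42), Inpp5d (0.27) and Pik3cd (0.24) were higher at that unadjusted p, and Akt2 (-0.32) and Rraga (-0.24) lower. Pik3ip1 and Sesn3, which rose, and Sesn1 (0.66, limma adjusted p = 0.0509) were counted with the FOXO targets and not in this list. These values are of mRNA, and the pathway works by phosphorylation, which was not analysed here.

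Of 25 tested genes of G1/S control, the step that Cdkn1b guards, 7 rose and 1 fell between GFPlo and GFPhi, and the median log2 fold change was 0.28. Mki67, a marker of cycling cells, went from a mean TPM of 3.13 to 21.6 (log2 fold change 2.45, limma adjusted p = 0.0021), Ccne1 (cyclin E1) from 7.73 to 31.1 (1.88) and Ccna2 (cyclin A2) from 19.2 to 66.0 (1.74), and these 3 calls held in all 19 alternatives. The others that rose were E2f2, the CDK inhibitors Cdkn2c and Cdkn2d, and Ccnd3, by log2 fold changes of 0.40 to 1.41, and Cks1b fell by 0.53 on the log2 scale. With the replicate block the calls of Cdkn2c and E2f2 were lost. Limma-voom counted 10 higher and 4 lower with library totals and 8 higher and 0 lower with size factors. Btg1, Slfn2 and Foxo1 and these cell cycle genes rose between the same samples, and whether they did so in the same cells was not tested.

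**Figure D4:**
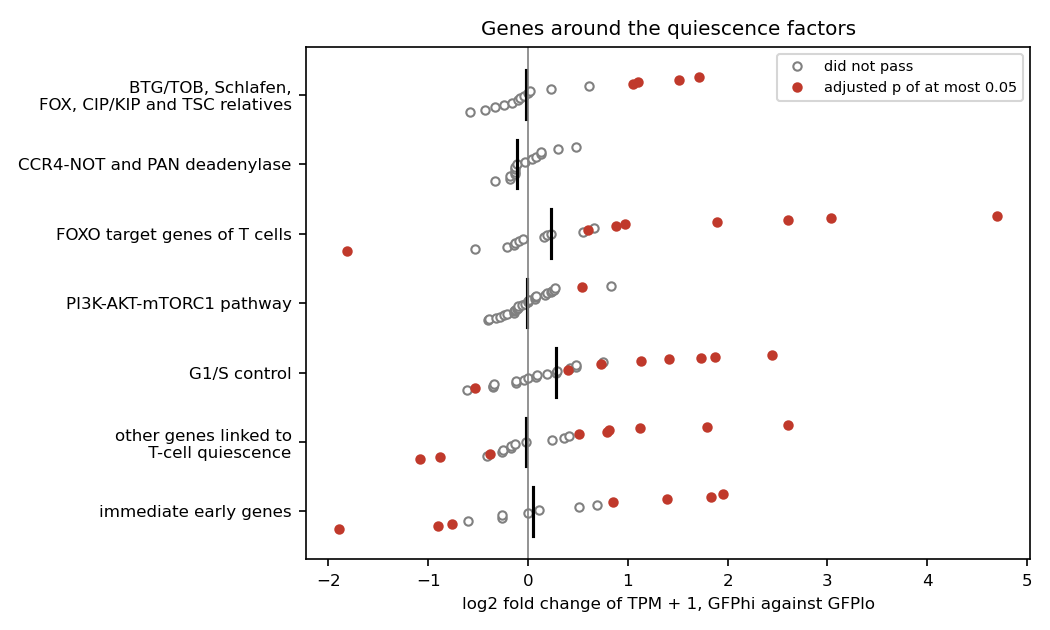
Log2 fold change of TPM + 1 between GFPlo and GFPhi (horizontal axis) for each tested gene of 7 gene lists, with filled red points for an adjusted p of at most 0.05, open points for the rest and black lines for list medians. All genes of the deadenylase and PI3K-AKT-mTORC1 lists lie within 1 of 0, while the other 5 lists hold points past 1.

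Of 19 other tested genes that have been linked to T cell quiescence, 6 rose and 3 fell, with a median log2 fold change of -0.02. Besides Klf2, those that rose in all 19 alternatives were Gfi1, a transcriptional repressor (1.79, limma adjusted p = 0.00542), and Peli1, an E3 ubiquitin ligase (0.79, limma adjusted p = 0.00325). Zfp36l1, Tgfbr2 and Tsc22d3 rose by log2 fold changes of 0.52 to 1.12, of which the call of Tgfbr2 was lost with the replicate block. Lef1 fell by 0.88 and Runx1 by 1.08 on the log2 scale, also in all 19 alternatives, and Vsir (VISTA) fell by 0.37, a call lost with the block.

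Immediate early genes, which TCR signals induce quickly and whose mRNA is short-lived, moved in both directions. Of 14 tested, 4 rose (Nr4a1, Dusp2, Fosl2 and Egr3), 3 fell (Egr1, Egr2 and Jun), and the median log2 fold change was 0.05. Nr4a1 rose by a log2 fold change of 1.95 (limma adjusted p = 0.000188). Its regulatory DNA drives the reporter used for the sort, so its rise is not a separate result. Egr1 went from a mean TPM of 966 to 569 (-0.76, limma adjusted p = 0.000544) and Egr2 from 391 to 209 (-0.90, limma adjusted p = 0.00129). Btg2, itself an immediate early gene in many cells, did not pass beside them.

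Genes listed as markers of other cells moved with the gates in part. All 5 regulatory T cell markers rose between GFPlo and GFPhi (Foxp3, Il2ra, Ctla4, Ikzf2 and Tnfrsf18), although the gate was CD25-. Il2ra had a mean TPM of 0.665 in GFPlo and 9.73 in GFPhi. Their summed TPM was 172 to 194 in GFPlo, 340 to 420 in GFPmed and 732 to 846 in GFPhi. Most of that sum was Tnfrsf18, with a mean TPM of 175, 357 and 716 in the 3 gates. Foxp3 had a mean TPM of 6.75 in GFPlo, 6.33 in GFPmed and 15.7 in GFPhi. The paper reports Ikzf2 as raised by self-antigen in Foxp3-negative SP4 thymocytes too. Of the double-positive and SP8 markers, 3 fell (Cd8a, Cd8b1 and Dntt) and 1 rose (Runx3) of 6 tested, with summed TPM of 64.1 to 66.3 in GFPlo and 42.0 to 49.9 in GFPhi. Of the B cell markers none of 5 passed by limma (summed TPM 233 to 236 in GFPlo, 122 to 180 in GFPhi), and of the myeloid markers none of 6 (28.1 to 33.3 and 26.0 to 33.8). The B cell sum was mostly Ighm, with a mean TPM of 211 in GFPlo and 130 in GFPhi. Sox13 fell among 4 tested NK, NKT and gamma-delta T cell markers, Epcam rose among 3 of thymic epithelium (summed TPM 3.86 to 8.96 in GFPlo and 10.3 to 13.2 in GFPhi), and neither of 2 erythroid markers passed. No marker of these lists was at 0 in all 9 samples. Summed TPM of the 11 SP4 markers was 9282 to 12045 in GFPlo and 10171 to 11798 in GFPhi, among which Cd5 rose and Cd69 fell. Trbc2 was the largest part of that sum. Cd4 (-0.30, limma adjusted p = 0.0532) and Zbtb7b (-0.72, limma adjusted p = 0.0739) had every GFPhi sample below every GFPlo sample (9.92% of all genes). For the SP4 markers limma-voom counted 2 higher and 4 lower with library totals and 1 higher and 1 lower with size factors. Whether other cells had a part in the rises of Btg1, Slfn2 and Foxo1 was not tested.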

How the data were processed

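RNA was amplified with SMART-seq v4 and sequenced as paired ends, without strand marks or molecular identifiers. After trimming, the authors used STAR 2.7.11b for alignment to GRCm38 (GENCODE), took out identical duplicates, obtained gene counts and deposited TPM per sample. For each gate the authors deposited, in addition, a mean normalized signal (read counts divided by DESeq2 1.34.0 size factors), from which, with the TPM, whole reads were solved for 41578 of 41978 genes (100% of values whole within 0.01). Their log2 fold change, adjusted p-value and call columns were not used.

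For the divisor of the TPM, the mean transcript span on the genome (introns included) was matched in 97.0% of 20121 protein-coding genes, so levels of different genes were compared as RPKM on exonic length (GENCODE M21, a release earlier than the authors'). Testing used limma 3.58.1 (R 4.3.3) with log2(TPM + 1) as input, 1 model for the 9 samples and 3 gates, and eBayes with a trend, on genes that reached a TPM of 1 in 3 or more samples. It was tested on simulated reads. The members and lists were chosen with earlier results of these data known. All members are named, and in each list the genes that passed, with at most 4 of them in full, except items not reported here. Further list genes (Tob2, Tsc2, Cnot1, Cnot7, Cnot10, Pabpc1, Pabpc4, Mtor, Rheb, Ddit4, Inpp5d, Pik3cd, Akt2, Rraga, Sesn1, Cd4, Zbtb7b) and the Btg1 paralogs were named after their values were seen.

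Alternatives were quantile or median-of-ratios scaling, a pseudocount of 0.1, a TPM minimum of 5 or none, no trend, the replicate block, only the 2 gates compared, each sample left out, the DEG limit, and limma-voom on the solved reads (with size factors: chosen after seeing the data). Same-numbered samples' deviations from the gate means correlated at 0.0122 to 0.225 (9 pairs, mean 0.0609). Samples with different numbers correlated at -0.185 to 0.148 (18 pairs, mean -0.0305). The numbers were not taken as pairs because the 9 values were not all above 0.1. That cut does not test for an effect shared by replicates, and the replicate block was run as an alternative. Replicates were labelled biological, and no source used here says which mice they came from.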

Additional observations from a re-analysis of the deposited data

How the results depend on the processing

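Between GFPlo and GFPhi, 3 factors rose under every alternative except the DEG limit (absolute log2 fold change of at least 1), which left 1. Between GFPmed and GFPhi the count of 2 became 0 with median-of-ratios scaling and with the DEG limit, 1 with quantile normalization, with the replicate block and with only the 2 gates, 3 with limma-voom on library totals, and 1 to 2 with a sample left out. Between GFPlo and GFPmed the count of 0 became 1 with quantile normalization and with limma-voom on library totals, and 0 to 1 with a sample left out (1 without GFPhi replicate 2). For the difference of the steps it became 1 with limma-voom on library totals. The cause of these changes was not tested. The replicate block changed no other call of a factor, and of the list genes named it lost those given beside them and Egr3. Small differences of Btg2, Foxp1 and Tsc1 changed sign under some alternatives (Btg2 from -0.08 to 0.09 on the log2 scale between GFPlo and GFPhi). Of all genes that passed between GFPlo and GFPhi, 61.1% were higher, against 78.3% with median-of-ratios scaling and 79.1% with limma-voom on size factors. Of 684 results for list genes, 153 lost their call under an alternative and none reversed. Foxo3 gave no value at a TPM of at least 5, and with 96 to 203 reads a sample its depth limits what can be seen.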
